A study of Mus musculus with 2197 samples.

Results

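Mouse pancreatic cells carrying a GFP reporter of Neurog3 (also called Ngn3) were compared between E10.5 and E12.5 (E, embryonic day), the days from which the study took its first-wave endocrine cells with this reporter. The cells were all those labelled Ngn3-GFP+ at the 2 days, without those in which at least 2 of 4 leukocyte genes (Csf1r, Tyrobp, Fcer1g and Ptprc) reached 100 CPM, the usual unit of gene counts scaled to the total of the cell. The rule removed 13 of 62 cells at E10.5 and 38 of 121 at E12.5. It left 132 of the 2195 cells of the series that were profiled one by one with Smart-seq2, a plate protocol that reads full-length cDNA. At E10.5 these were 49 cells in 3 sets (12, 14 and 23), and at E12.5 83 cells in 3 sets (30, 32 and 21), a set being the number that the titles of a group's cells share. Both groups came from embryos of a strain with GFP knocked in at the Ngn3 locus and were sorted as GFP+, with no split into bright and dim cells and no treatment named. Whether the embryos carried 1 or 2 copies of the allele, how many embryos a set pooled and what a set stands for are not given in the sources used here. The p-values therefore reflect no more than how sets vary, and that variation may be technical. A cell had 569494 to 1589810 counts and 7765 to 10926 detected genes, and the summed counts of a set ran from 12758347 to 36337906.

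Neurog3 encodes the basic helix-loop-helix factor that commits pancreatic epithelial cells to the endocrine fate, and its transcript is present only briefly, while GFP protein lasts longer. The earliest endocrine cells of the mouse pancreas appear before the main burst of endocrine differentiation, and most of them make glucagon. Peptide hormones are made as precursors and cut inside secretory granules by the prohormone convertases PC1/3 (gene Pcsk1) and PC2 (gene Pcsk2). PC2 releases glucagon from proglucagon, and PC1/3 releases the glucagon-like peptides. Both convertases have a small binding protein in the granule, proSAAS (gene Pcsk1n) for PC1/3, which it inhibits, and 7B2 (gene Scg5) for PC2, which it helps to mature.

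Gcg, the proglucagon gene, split the cells of both days into separate ranges. In 87 of the 132 cells Gcg stood at 2695 to 128633 CPM, and in the other 45 at 2.86 to 819 CPM. Only 1 cell lay within a factor of 2 of the limit of 1000 CPM that divided them. The cells over the limit are called Gcg-high here, which is a range of one transcript and not a cell type. At E10.5 they were 6 of 12, 14 of 14 and 11 of 23 cells of sets 1, 2 and 3, and at E12.5 19 of 30, 20 of 32 and 17 of 21. The share was 65.9% ± 29.5 (SD, n = 3 sets) at E10.5 and 68.9% ± 10.4 (SD, n = 3) at E12.5. The difference of 2.99 percentage points was smaller than the spread between sets (exact permutation test over sets, two-sided, p = 1, where 3 against 3 sets cannot go below 0.1). Within the Gcg-high cells Gcg itself stood at 59749, 51305 and 44637 CPM at E10.5 and at 65645, 41072 and 53239 CPM at E12.5, so that its level overlapped between the days.

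**Figure D1:**
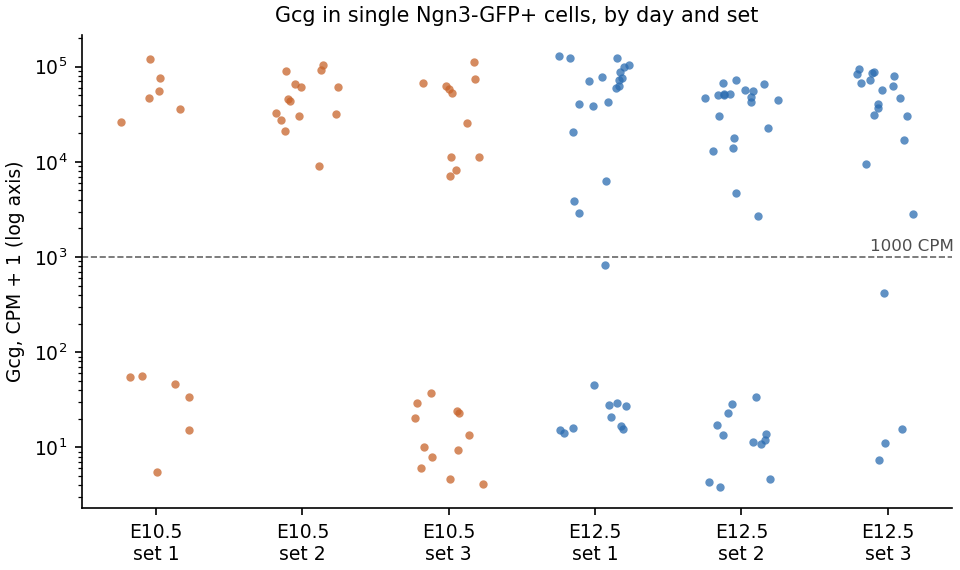
Gcg level of every Ngn3-GFP+ cell (CPM + 1, log axis) by day and set, with the limit of 1000 CPM as a line. On both days the cells fall into a range above 2695 CPM and a range below 819 CPM.

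Neurog3 transcript itself was rare in these sorts. It reached 100 CPM in 3 cells at E10.5, all of set 3, and in 1 cell at E12.5, or 4.35% ± 7.53 (SD, n = 3) and 1.04% ± 1.80 (SD, n = 3) of a set (exact permutation test, two-sided, p = 1). No cell of either day combined Neurog3 at 100 CPM with Gcg at 1000 CPM. In the Gcg-high cells the highest Neurog3 level was 24.4 CPM at E10.5 and 36.4 CPM at E12.5.

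The Gcg-low cells were of several kinds, and the counts of these kinds, pooled over sets, were not alike on the 2 days. At E10.5 they came from only 2 sets, with 6 cells in set 1, 0 in set 2 and 12 in set 3. At E12.5 the sets held 11, 12 and 4. The difference between the days was not tested over sets. Of 18 at E10.5, 5 had Epcam, Pdx1 and Sox9, genes of the pancreatic epithelium, each at 100 CPM or more, against 16 of 27 at E12.5. Isl1 and Pyy, a factor and a peptide of endocrine cells, were both at 100 CPM in 4 of 18 and 5 of 27. At least 3 acinar genes reached 100 CPM in 3 of 18 and 18 of 27, and these classes can share a cell. By set these were 0 of 6 and 3 of 12 cells at E10.5, and 7 of 11, 8 of 12 and 3 of 4 at E12.5. A further 4 cells, all of E10.5 set 1, had Sparc at 16041 to 25661 CPM, where no other cell exceeded 2126 CPM. They also had Col4a1 at 14631 to 24955 CPM and Lama1 at 1996 to 5208 CPM, basement membrane genes, with Cdh1, the epithelial cadherin, at no more than 0.905 CPM and Pdx1 at 0. They match none of the marker lists used here and are left unnamed.

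Markers of leukocytes, endothelium, erythroid cells and neural and glial cells were low in the Gcg-high cells of both days. Mesenchyme, acinar and liver genes stood higher. The acinar genes summed to 240 to 320 CPM per set at E10.5 and 283 to 588 CPM at E12.5. Clps, one of them, reached 100 CPM in 24 of 31 and 41 of 56 cells. The liver genes summed to 5617 to 5856 and 9251 to 11175 CPM. The 12 leukocyte genes summed to 10.9 to 21.7 CPM per set at E10.5 and 25.4 to 41.8 CPM at E12.5, a sum that holds the 4 genes by which cells had been left out, so that its low level is partly set by that rule. Of the other 8, Itgb2 was at 0 in every set, and C1qa stood at 0.143, 2.21 and 3.8 CPM against 9.55, 15.4 and 8.56 CPM. The 8 endothelial genes summed to 1.12 to 1.39 and 2.01 to 8.23 CPM, with Cdh5 and Emcn at 0. The 9 erythroid genes summed to 4.52 to 5.62 and 5.44 to 25.8 CPM, and the 8 neural and glial genes to 26.96 to 28.2 and 22.1 to 37.3 CPM, with Sox10 at no more than 0.0759 CPM. The 8 mesenchyme genes summed to 109.6 to 309 and 125 to 146 CPM. Col1a2, a collagen chain, made up most of that and reached 100 CPM in 16 of 31 and 27 of 56 Gcg-high cells, while Twist1, a factor of mesenchyme, was at 0 in every set. The part of these transcripts in the results was not tested. The days also differed in their sex-linked transcripts: Xist, made from the inactive X chromosome, reached 100 CPM in 27 of 49 cells at E10.5 and 13 of 83 at E12.5, and the Y-linked Ddx3y in 8 of 49 and 36 of 83.

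Counts were summed per set and tested with edgeR. Among all 132 cells, 15511 genes were tested and 1 passed at an adjusted p under 0.05, higher at E12.5 and 0.00645% of those tested, with none lower. At an unadjusted p under 0.05 there were 1294 genes (8.34%). Among the Gcg-high cells, 14230 genes were tested and 2 passed (0.0141%), 1 in each direction (0.00703% each), with 1510 (10.6%) at an unadjusted p under 0.05. By DESeq2, 280 genes were called among all cells (149 higher, 131 lower at E12.5) and 463 among Gcg-high cells (206 higher, 257 lower). A plainer measure is whether the 3 sets of one day all lie above the 3 sets of the other. Among the Gcg-high cells this held with E12.5 above for 9.66% of the genes tested and with E10.5 above for 9.16%. A gene under the limit of the filter on low counts in every set of 1 day was tested only if all 3 sets of the other day passed it. Its side was then fixed in advance, in the lists and in these shares alike. The counts of list members below are set beside these shares, and a list's median beside the median log2 fold change (E12.5 minus E10.5) of all genes tested, 0.02.

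Pcsk1n, which encodes proSAAS, rose between the days. In the Gcg-high cells it stood at 109, 119 and 121 CPM in the E10.5 sets and at 1401, 1479 and 1196 CPM in the E12.5 sets. Every E12.5 set was far above every E10.5 set. The means were 116 ± 6.41 and 1359 ± 147 CPM (SD, n = 3 sets each), a log2 fold change of 3.57 ± 0.16 (SE; edgeR quasi-likelihood test, Benjamini-Hochberg adjusted p = 0.000185). Single cells ranged from 10.9 to 295 CPM (median 102) at E10.5 and from 238 to 3540 CPM (median 1260.5) at E12.5, so that the ranges of cells met only at their ends. Among all cells its sets stood at 74.2, 119 and 75.3 CPM against 948, 998 and 1051 CPM, a log2 fold change of 3.45 ± 0.24 (SE; edgeR, adjusted p = 0.0209). That call among all cells was lost without any 1 set other than E10.5 set 2 (edgeR adjusted p up to 0.244). Its highest edgeR adjusted p over all alternatives, 0.709, came from Gcg-low cells only, a fit with 2 sets per day. The call in Gcg-high cells held in all 13 alternatives (adjusted p up to 0.0102). Of these, 1 left out cells with Neurog3 at 100 CPM, which removed no cell, so it repeats the main fit. Pcsk1n lies on the X chromosome (GRCm38, X:7919822-7924410, plus strand, ENSMUSG00000039278). Its median in Gcg-high cells with Xist at 100 CPM was 95.9 CPM (16 cells) at E10.5 and 1276 CPM (9 cells) at E12.5. In those without it was 117 CPM (15 cells) and 1245 CPM (47 cells). These medians are over cells pooled from the sets, and 7 of the 9 E12.5 cells with Xist were of set 3. The part of sex in the difference between the days was not tested.

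Pcsk1, which encodes PC1/3, fell over the same days in the Gcg-high cells. Its sets stood at 506, 519 and 453 CPM at E10.5 and at 135, 101 and 112 CPM at E12.5. The sets did not overlap, with means of 493 ± 34.8 and 116 ± 16.9 CPM (SD, n = 3 sets each). The log2 fold change was -2.07 ± 0.17 (SE; edgeR, adjusted p = 0.0139). Pcsk1 reached 100 CPM in 26 of 31 cells at E10.5 and 22 of 56 at E12.5, and the cell median went from 543 to 58.4 CPM. The call held without E10.5 set 3 and was lost without any 1 of the other sets (adjusted p up to 0.259). Among all cells Pcsk1 stood at 286, 519 and 261 CPM against 118, 96.3 and 125 CPM, which did not pass (edgeR, adjusted p = 0.353). Pcsk1 lies at 13:75089826-75134861 (GRCm38, plus strand, ENSMUSG00000021587).

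The sequences before the starts of the 2 genes that passed are shown since they differ in the cAMP response element half-site TGACG, a motif bound by CREB family factors. They are RefSeq promoter sequences on GRCm38.p6, in the direction of the gene, with bases inside the annotated gene left out and capitals marking TGACG or its reverse complement, or the full TGACGTCA, which holds TGACG on both strands.
Pcsk1n, chrX:7919572-7919821, plus strand: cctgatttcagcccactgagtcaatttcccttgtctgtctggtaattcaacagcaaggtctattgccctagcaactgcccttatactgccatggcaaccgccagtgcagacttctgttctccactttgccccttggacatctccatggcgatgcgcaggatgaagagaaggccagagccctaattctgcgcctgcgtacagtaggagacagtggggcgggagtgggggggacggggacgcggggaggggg
Pcsk1, chr13:75089607-75089825, plus strand: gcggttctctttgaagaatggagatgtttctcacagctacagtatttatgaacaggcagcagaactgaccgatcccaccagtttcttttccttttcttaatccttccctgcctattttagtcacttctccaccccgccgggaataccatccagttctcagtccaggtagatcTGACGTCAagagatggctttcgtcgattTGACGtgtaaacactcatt
The Pcsk1n stretch holds no TGACG and the Pcsk1 stretch holds 3 matches counted over both strands, 2 of them in 1 TGACGTCA. In the 250 bases before the start, TGACG on either strand was found in 10 of 16 granule genes with a promoter in the table (62.5%) and in 17.9% of all 27025 promoters, and TGACGTCA in 3 of 16 and 1.62%. Such matches are descriptions of these windows.

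**Figure D2:**
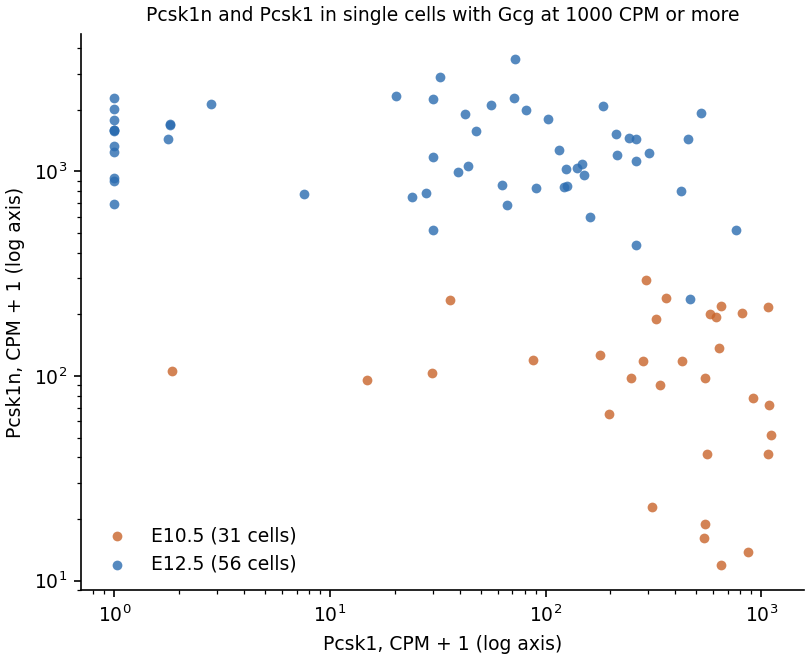
Pcsk1n against Pcsk1 in each Gcg-high cell (CPM + 1, log axes), coloured by day. The E10.5 cells lie at 10.9 to 295 CPM of Pcsk1n and the E12.5 cells at 238 to 3540 CPM.

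Other genes of the hormone granule did not pass, and most had higher values at E12.5. Of 21 list members tested, 18 had a positive and 3 a negative log2 fold change, with a median of 0.56. The sets were apart with E12.5 above for 8 of 21, beside 9.66% of all genes tested. With E10.5 above it was 3 of 21, beside 9.16%. Scg5, which encodes 7B2, stood at 125, 172 and 121 CPM at E10.5 and at 467, 435 and 405 CPM at E12.5 (log2 fold change 1.66 ± 0.19, edgeR adjusted p = 0.0697), and it reached 100 CPM in 15 of 31 and 51 of 56 cells. Resp18, an endocrine secretory protein, stood at 48.2, 63 and 99.4 CPM against 231, 235 and 211 CPM (1.71 ± 0.25, edgeR adjusted p = 0.116). Chga, the granule protein chromogranin A, stood at 582, 1012 and 625 CPM against 2246, 1253 and 1748 CPM (1.26 ± 0.28, edgeR adjusted p = 0.162). In each of these 3 genes the sets of the days were apart.

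The enzymes that act on proglucagon and its products differed among themselves. Pcsk2, which encodes PC2, stood at 1151, 1092 and 1415 CPM at E10.5 and 1857, 1406 and 1614 CPM at E12.5, with overlapping sets. Cpe, the carboxypeptidase that trims the cut peptides, stood at 2253, 1992 and 2832 CPM against 3413, 3453 and 3420 CPM, with sets apart (log2 fold change 0.56 ± 0.15, edgeR adjusted p = 0.243). Vgf, a granin-like precursor, and Syt7, a calcium sensor of exocytosis, were with Pcsk1 the members with E10.5 above. Vgf stood at 17.6, 17.4 and 23.5 CPM against 8.65, 12.51 and 15.48 CPM. Syt7 stood at 52.1, 54.7 and 46.2 CPM against 43.2, 26.5 and 43.9 CPM. The summed level of the list was 8144 ± 826 CPM at E10.5 and 12930 ± 1052 CPM at E12.5 (SD, n = 3), without a test of its own.

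**Figure D3:**
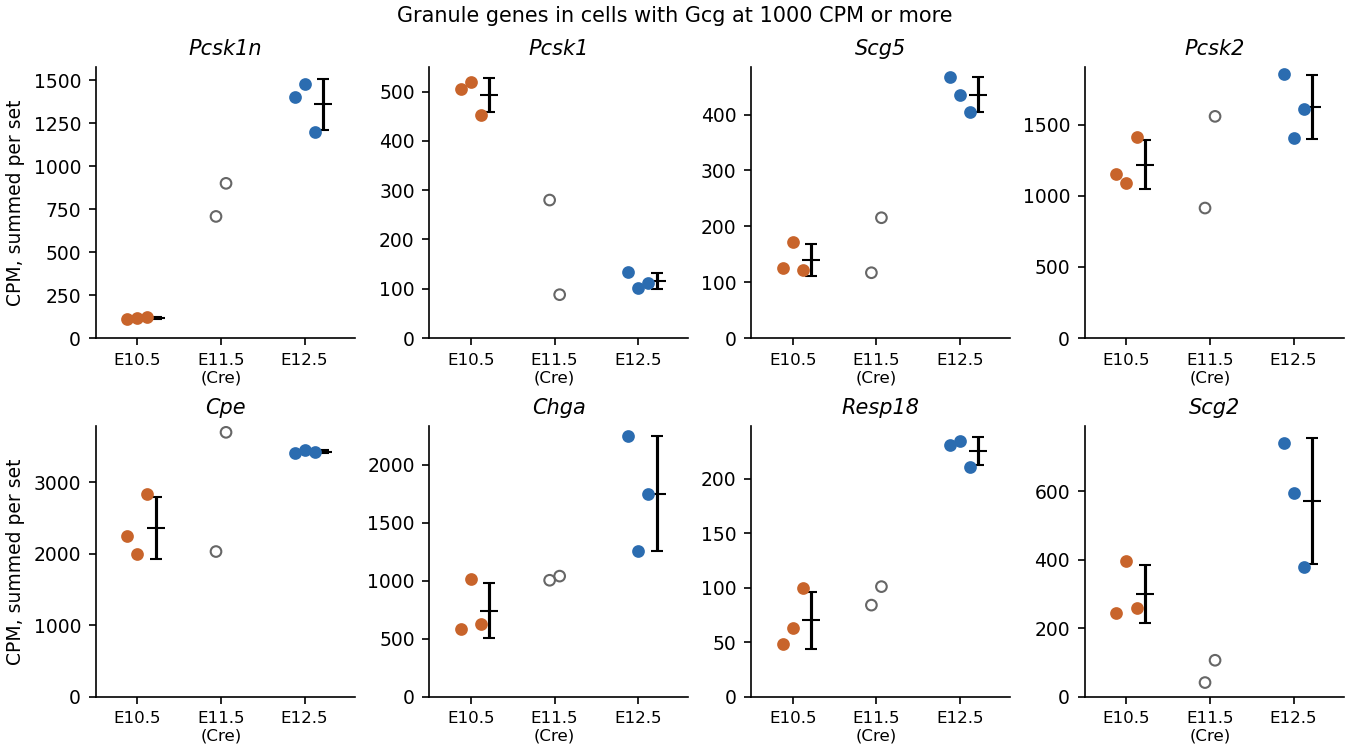
CPM of 8 hormone granule genes in the Gcg-high cells of each set (filled points, with mean and SD over 3 sets), each on its own linear axis from 0. Open points are the 2 sets of E11.5, from a different reporter (Ngn3-Cre; Rosa-RFP). Pcsk1n is at 109 to 121 CPM in the E10.5 sets and 1196 to 1479 CPM in the E12.5 sets, and Pcsk1 at 453 to 519 and 101 to 135 CPM.

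Peptides other than glucagon were carried by many Gcg-high cells of both days, and none passed the test. Of 15 list members tested, 3 had E12.5 above in all sets and 3 had E10.5 above, beside 9.66% and 9.16% of all genes. Gip, the incretin made in the gut, stood at 236, 103 and 154 CPM at E10.5 and at 15, 10.8 and 27.4 CPM at E12.5 (log2 fold change -3.22 ± 0.44, edgeR adjusted p = 0.0868). It rested on few cells, since 5 of 31 and 4 of 56 reached 100 CPM, with a highest cell of 1627 CPM at E10.5 and 266 CPM at E12.5. Iapp, the amyloid peptide that beta cells secrete with insulin, stood at 3997, 1656 and 2283 CPM against 1336, 391 and 825 CPM (-1.64 ± 0.48, edgeR adjusted p = 0.269), with 25 of 31 and 37 of 56 cells at 100 CPM. The sets of both genes were apart, with E10.5 above, as were those of Tac1, the tachykinin precursor, at 5.58, 15.6 and 20.3 CPM against 0, 3.05 and 0 CPM.

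Ppy, pancreatic polypeptide, ran the other way in its values, at 12.3, 10.49 and 29.2 CPM at E10.5 and 118, 277 and 99.1 CPM at E12.5 (log2 fold change 3.28 ± 0.53, edgeR adjusted p = 0.131). It reached 100 CPM in 1 of 31 and 15 of 56 cells. Sct, secretin, stood at 48.9, 58.7 and 223 CPM against 440, 581 and 255 CPM (2.00 ± 0.57, edgeR adjusted p = 0.261), with 9 of 31 and 51 of 56 cells. Pyy, peptide YY, was at 100 CPM or more in all 31 and all 56 cells, at 5126, 2732 and 4682 CPM against 6826, 13288 and 6620 CPM. These 3 genes were apart between the days with E12.5 above.

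The other 9 peptides tested overlapped between the days. Ghrl, ghrelin, reached 100 CPM in 19 of 31 and 25 of 56 cells, and Cck, cholecystokinin, in 19 of 31 and 23 of 56. Ins1, from the beta cell list, did so in 17 of 31 and 15 of 56 cells, with sets at 512, 231 and 514 CPM against 538, 73.0 and 568 CPM. Ins1 and Ins2 are near-identical copies, so the split of reads between them is uncertain. Sst, somatostatin, reached 100 CPM in 2 of 31 cells and 0 of 56, which allows a share of up to 5.36% (counting error only).

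Endocrine transcription factors were mostly at like levels, with a few higher at E12.5. Of 14 pan-endocrine factors, 12 had a positive log2 fold change (median 0.29), and none passed. E12.5 was above in all sets for 5 and E10.5 for none, beside 9.66% and 9.16% of all genes. Mlxipl, the glucose-sensing factor ChREBP, stood at 22.2, 28.1 and 41.8 CPM against 134, 201 and 56.3 CPM (2.12 ± 0.46, edgeR adjusted p = 0.162), and reached 100 CPM in 2 of 31 and 28 of 56 cells. Fev stood at 14.3, 31.5 and 42.2 CPM against 67.2, 68.1 and 82.5 CPM, and St18 at 54.3, 101 and 58.3 against 187, 135 and 105 CPM. Isl1, needed for islet cells to mature, stood at 1091, 854 and 1465 CPM against 1119, 1121 and 1201 CPM, and Neurod1 and Pax6 overlapped as well.

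Of 15 alpha cell genes tested apart from Gcg, 12 had a positive log2 fold change (median 0.38). Of these 15, 4 had E12.5 above in all sets, beside 9.66% of all genes. Ttr, the thyroxine carrier transthyretin, stood at 2943, 5464 and 2432 CPM against 8729, 7013 and 11894 CPM (1.36 ± 0.32, edgeR adjusted p = 0.179). Tmem27, a membrane glycoprotein of islet cells, stood at 3249, 3677 and 3202 CPM against 5032, 5292 and 5191 CPM. Etv1, an ETS factor, stood at 178, 142 and 227 CPM against 279, 447 and 333 CPM. Among beta cell genes, Papss2 stood at 31.6, 69.4 and 71.2 CPM against 184, 279 and 191 CPM (1.95 ± 0.32, edgeR adjusted p = 0.133). In that list 3 of 16 had E12.5 above and 2 of 16 E10.5 above, beside 9.66% and 9.16% of all genes.

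Cells that held several transcripts of dividing cells were found among the Gcg-high cells at E10.5 and not at E12.5. At least 3 of 18 G2/M genes reached 100 CPM in 4 of 6, 1 of 14 and 1 of 11 cells of the E10.5 sets, and in 0 of 19, 0 of 20 and 0 of 17 cells of the E12.5 sets. The share was 27.6% ± 33.8 (SD, n = 3) and 0% (exact permutation test over sets, two-sided, p = 0.1, the smallest that 3 against 3 sets can give). A count of 0 of 56 cells allows a share of up to 5.36%. For S phase genes the cells were 3, 1 and 2 at E10.5 and 0 at E12.5, or 25.1% ± 22.3 (SD, n = 3) and 0%. The Gcg-low cells had such cells on both days, at 6 of 18 and 7 of 27 for G2/M and 16 of 18 and 20 of 27 for S phase.

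Gene by gene, all 18 G2/M members had a negative log2 fold change in the Gcg-high cells, with a median of -5.46, and none passed (edgeR). For 16 of 18 every E10.5 set lay above every E12.5 set, beside 9.16% of all genes tested. Members close to 0 at E12.5, such as Bub1 (1349 counts at E10.5, 2 at E12.5) and Cdk1, entered the test only through E10.5. For these the filter fixed the side in advance, so the count of 16 is partly set by it. Cdk1, the kinase that drives entry into mitosis, stood at 185, 60.4 and 3.19 CPM at E10.5 and 0.135, 0.129 and 0 CPM at E12.5 (edgeR adjusted p = 0.133). Top2a, the topoisomerase that untangles replicated chromosomes, stood at 303, 88.6 and 16.2 CPM against 4.55, 3.53 and 1.16 CPM (edgeR adjusted p = 0.160). Ccnb2, a cyclin partner of Cdk1, stood at 318, 31 and 31.7 CPM against 4.55, 0.731 and 0.245 CPM. Set 1 of E10.5 was the highest in each, and the E10.5 sets also differed widely from each other.

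All 15 S phase genes tested had a negative log2 fold change too, with a median of -1.60, and none passed (edgeR). Of them 9 had E10.5 above, beside 9.16% of all genes. Mcm2, a subunit of the replicative helicase, stood at 149, 102 and 142 CPM against 54.9, 49.4 and 52.6 CPM, the most even of these genes between sets (-1.31 ± 0.21, edgeR adjusted p = 0.131). Mcm5, another subunit, stood at 89.5, 26.3 and 24.7 CPM against 1.89, 3.31 and 0.918 CPM. Without E10.5 set 1, 16 of 18 G2/M and 9 of 15 S phase genes had E10.5 above, beside 15.3% of all genes. Without the 8 of 31 E10.5 cells marked by either list, a choice made after the values were seen, set 1 kept 2 cells and was left out as well, so that this setting changes both the cells and the sets. In the 2 sets left at E10.5, 8 of 18 G2/M genes had E10.5 above and 2 of 18 E12.5 above, beside 14.3% and 13.6% of all genes. The 8 cells left out were chosen by the genes counted here, so the lower count is partly set by that choice. Those 8 cells had Gcg at a median of 45682 CPM, against 53481 CPM in the other 23, and Pcsk1n at 80.4 against 117 CPM. These medians are over cells pooled from the sets. Set 1 gave 4 of the 8 cells and 2 of the other 23, so marking and set are mixed.

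The promoters of Cdk1 and Ccnb2 are shown because they hold matches to the letters of 2 elements known from cell cycle genes. These are the cell cycle homology region (CHR, TTTGAA), which binds the DREAM complex, and the CCAAT box, which binds NF-Y. The sequences are from RefSeq on GRCm38.p6 in the direction of the gene, and capitals mark TTTGAA and CCAAT on either strand.
Cdk1, chr10:69352939-69353162, minus strand: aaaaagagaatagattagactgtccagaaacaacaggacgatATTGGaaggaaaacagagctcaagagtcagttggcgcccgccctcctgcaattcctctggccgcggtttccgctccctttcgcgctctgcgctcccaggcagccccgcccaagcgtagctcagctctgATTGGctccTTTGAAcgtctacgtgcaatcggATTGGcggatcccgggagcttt
Ccnb2, chr9:70421555-70421804, minus strand: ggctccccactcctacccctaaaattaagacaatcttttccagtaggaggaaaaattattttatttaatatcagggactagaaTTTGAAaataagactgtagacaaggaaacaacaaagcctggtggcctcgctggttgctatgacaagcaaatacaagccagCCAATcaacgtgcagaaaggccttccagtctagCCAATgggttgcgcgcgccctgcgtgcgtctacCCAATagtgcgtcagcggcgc
Each stretch holds 1 TTTGAA and 3 CCAAT. The TTTGAA lies among the CCAAT matches in Cdk1 and before all 3 of them in Ccnb2, so whether it is a working CHR is not known from these letters. In the 250 bases before the start, TTTGAA on either strand was found in 6 of 16 G2/M promoters (37.5%), 2 of 14 S phase promoters (14.3%) and 16.3% of all 27025 promoters. CCAAT was found in 14 of 16 (87.5%), 11 of 14 (78.6%) and 34.5%. A match is no measure of binding in these cells.

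**Figure D4:**
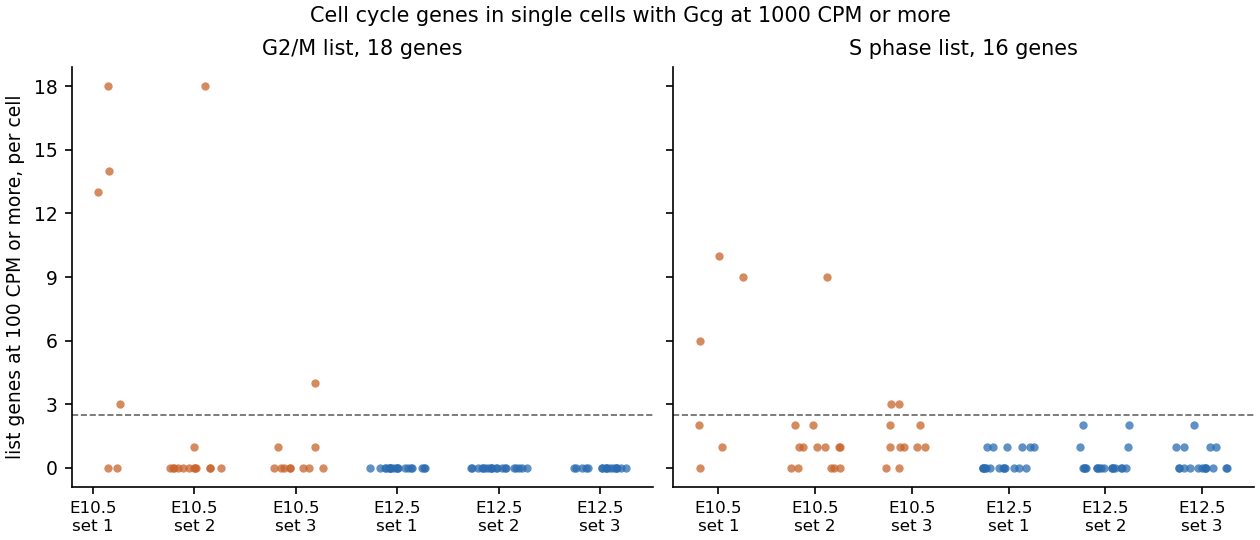
Number of G2/M genes (left) and S phase genes (right) at 100 CPM or more in each Gcg-high cell, by day and set, with points spread sideways. The dashed line separates cells with 3 or more. At E10.5 4 of 6 cells of set 1 and 1 cell each of sets 2 and 3 have 3 or more G2/M genes at 100 CPM, and no E12.5 cell does.

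Genes of glycolysis had mostly lower values at E12.5, and none passed. Of 16 members, 14 had a negative log2 fold change (median -0.52). E10.5 was above in all sets for 9 and E12.5 for 1, beside 9.16% and 9.66% of all genes. Ldha, the lactate dehydrogenase subunit that mature beta cells hold at low levels, stood at 269, 200.4 and 368 CPM against 11.4, 48.6 and 64.4 CPM (-2.74 ± 0.56, edgeR adjusted p = 0.162) and reached 100 CPM in 17 of 31 and 5 of 56 cells. Pgk1 stood at 148, 102 and 118 CPM against 53.3, 69.5 and 62.3 CPM, and Aldoa at 716, 628 and 776 CPM against 384, 429 and 552 CPM. Without the 8 cycle-marked cells and the rest of E10.5 set 1, 11 of 16 members had E10.5 above, beside 14.3% of all genes, and without set 1 alone 10 of 16, beside 15.3%.

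Genes of the fetal Lin28 axis had a similar pattern of values. Of 10 members tested 8 had a negative log2 fold change (median -0.72). E10.5 was above for 4 and E12.5 for none, beside 9.16% and 9.66% of all genes. Lin28a, which blocks the maturation of let-7 microRNAs, stood at 17, 28.3 and 12.9 CPM against 0.676, 3.87 and 5.08 CPM (-2.59 ± 0.80, edgeR adjusted p = 0.295). Igf2bp1, a fetal RNA-binding protein, stood at 261, 202 and 261 CPM against 136, 146 and 106 CPM (-0.88 ± 0.20, edgeR adjusted p = 0.165). Imprinted genes were split, with 5 of 20 E12.5 above and 3 of 20 E10.5 above, beside 9.66% and 9.16% of all genes. Meg3, a maternally expressed non-coding RNA, stood at 253, 408 and 517 CPM against 959, 1262 and 774 CPM (1.38 ± 0.27, edgeR adjusted p = 0.160), and Nnat, neuronatin, at 46.6, 80.8 and 93.1 CPM against 20.9, 36.9 and 12.8 CPM.

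Genes of plasma proteins best known from liver were higher in value at E12.5 in these pancreatic cells. Of 12 tested, 11 had a positive log2 fold change (median 1.12), and none passed. E12.5 was above for 6 and E10.5 for none, beside 9.66% and 9.16% of all genes. Rbp4, the retinol carrier, stood at 4614, 3813 and 4149 CPM against 6751, 6656 and 6582 CPM (0.68 ± 0.14, edgeR adjusted p = 0.162). Ambp stood at 699, 1021 and 1205 CPM against 1878, 3475 and 2161 CPM, and Serpina1a at 7.72, 33.8 and 7.21 CPM against 79.3, 176 and 146 CPM. Alb, the main transcript of liver cells, stood at no more than 14.96 CPM in any set.

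Immediate early genes, which many cells raise within minutes of a stimulus or of tissue dissociation, stood higher at E12.5. Of 11 tested, 10 had a positive log2 fold change (median 1.42), and none passed. E12.5 was above for 5 and E10.5 for none, beside 9.66% and 9.16% of all genes. Dusp1 stood at 8.87, 17.9 and 6.22 CPM against 58.1, 34.5 and 47.8 CPM (2.1 ± 0.47, edgeR adjusted p = 0.164), and Fos at 0, 1.60 and 10.9 CPM against 66, 94.2 and 16.3 CPM.

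Among genes of electrical excitability, 5 of 14 had E12.5 above and none E10.5 above, beside 9.66% and 9.16% of all genes. None of them was called. Abcc8, the sulfonylurea receptor subunit of the ATP-sensitive potassium channel, stood at 504, 847 and 759 CPM against 1287, 954 and 1055 CPM. Of the adhesion genes, Ncam1 stood at 60.3, 63.1 and 46.3 CPM against 169.7, 103 and 161 CPM (1.36 ± 0.25, edgeR adjusted p = 0.150), and Cdh2, N-cadherin, at 19.3, 30 and 11.6 CPM against 73.3, 52.1 and 75.4 CPM. The 16 genes of folding in the endoplasmic reticulum had a median log2 fold change of 0.01, with 2 of 16 E12.5 above and 1 of 16 E10.5 above. Hspa5, the chaperone BiP, stood at 1265, 1029 and 1673 CPM against 1498, 1314 and 1294 CPM. The 13 genes of cell cycle exit (1 with E12.5 above) and the 11 amino acid transporters (1 with E10.5 above) stood near the shares of all genes.

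Lists of earlier steps of the lineage were split in the Gcg-high cells, with none called (edgeR). Among 16 endocrine progenitor genes, 2 had E12.5 above and 2 E10.5 above, beside 9.66% and 9.16% of all genes. Mfng, a glycosyltransferase that modifies Notch receptors, was one of the latter, at 96.4, 102 and 102 CPM against 72.5, 48 and 41.1 CPM (-0.87 ± 0.26, edgeR adjusted p = 0.274). Of 13 Notch pathway genes tested, 3 had E12.5 above and 1 E10.5 above, and Hes1, the main target of Notch in the pancreas, stood at no more than 13.2 CPM in any set. Of 15 genes of pancreatic progenitors and trunk, 3 had E12.5 above and none E10.5 above, and of 9 early foregut genes 2 and 1.

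**Figure D5:**
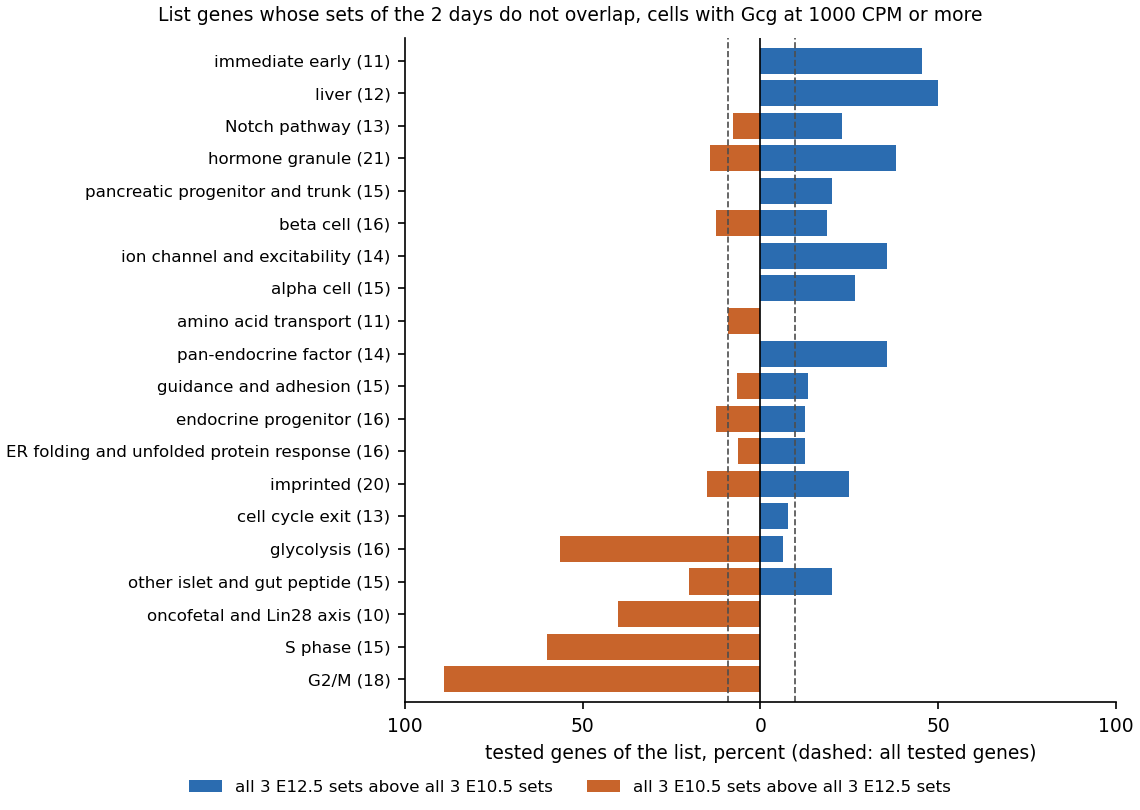
Percent of tested genes with all 3 E12.5 sets above all 3 E10.5 sets (right) or the reverse (left) in the Gcg-high cells. Only lists with 10 or more tested genes are drawn (number tested in brackets), ordered by median log2 fold change. Dashed lines are the shares of all genes tested, 9.66% and 9.16%, and the G2/M list reaches 16 of 18 on the left.

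Genes outside the lists came next by p in the Gcg-high cells, none of which passed, and the following were chosen after their values were seen. Id3 and Id1 encode inhibitors of helix-loop-helix factors that BMP signals induce. Id3 stood at 16.7, 18.98 and 24.7 CPM against 119, 99.9 and 77.6 CPM (2.32, edgeR adjusted p = 0.0697). Id1 stood at 5.00, 4.88 and 2.43 CPM against 54.3, 36.3 and 41.9 CPM. Hnrnpa1, an RNA-binding protein of splicing, stood at 639, 484 and 655 CPM against 229, 201 and 233 CPM. In all 3 the sets were apart.

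Among all cells, acinar genes had the lists' widest distance between the days, with none called (edgeR). Of 9 tested, 7 had E12.5 above and 1 E10.5 above, with a median log2 fold change of 3.72, beside 9.20% and 6.48% of the genes tested in all cells. Members close to 0 on 1 day, such as Ctrb1 and Prss1 (31 counts at E10.5, 0 at E12.5), entered the test only through the other day. The filter thus fixed their side in advance. E10.5 set 2 also held no Gcg-low cells. Cpa1, a carboxypeptidase that also marks the tips of the pancreatic epithelium, stood at 0, 0 and 127 CPM against 835, 1319 and 515 CPM. Cela1, an elastase, stood at 0.627, 1.74 and 31.6 CPM against 178, 110 and 149 CPM. Ctrb1, chymotrypsinogen, had no count at E10.5 and 1883 counts at E12.5, at least 387-fold higher when 3 counts over the whole group stand in for none. In the Gcg-high cells only 5 acinar genes had counts enough to be tested, and 1 had E12.5 above. The G2/M list among all cells had E10.5 above for 8 of 18 (median log2 fold change -2.11), and the S phase list for none of 16 (median -0.57).

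The study also sampled E11.5, with a different reporter: RFP+ cells of Ngn3-Cre; Rosa-RFP embryos, in which Cre activity marks descendants of Neurog3 cells permanently. Under the same rule its 2 sets held 8 and 11 Gcg-high cells. They had Pcsk1n at 707 and 900 CPM and Pcsk1 at 280 and 88.0 CPM. Cdk1 stood there at 14.2 and 19.7 CPM, Ldha at 216 and 61.1 CPM and Ppy at 25.7 and 140 CPM. The E11.5 mean lay between the means of the 2 days for both genes that passed, and for 31.1% of genes with the higher mean at E12.5 and 32% with the lower. These shares are over all genes tested, and a wide difference between the days, as in the genes that passed, leaves more room to lie between. For Pcsk1 only the first E11.5 set lay between, and the second, at 88.0 CPM, was below every E12.5 set. In Gcg-high cells of the later Ngn3-GFP+ sorts, Pcsk1n stood at 646 to 886 CPM in the sets of E16.5 and 771 to 1710 CPM in those of E17.5, and Pcsk1 at 196 to 283 and 130 to 360 CPM. Reporter and day cannot be told apart in the E11.5 values, and no test was made with them.

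Across the 132 cells the genes whose levels were most like those of Gcg, among 4345 with a mean of at least 50 CPM, were Ttr (Spearman rho 0.77), Gpx3 (0.77), Tmem27 (0.73), Chga (0.71) and Slc7a2 (0.70). These correlations are over cells that share sets and 2 levels of Gcg, and they are given as a description.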

How the data were processed

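Single cells were profiled with Smart-seq2 (18 cycles of cDNA amplification), without molecular identifiers, so intervals and floors cover counting error only. Per the submitters' processing notes, the deposited read counts came from the authors' work with HTSeq 0.6.0, Bowtie2 and TopHat2 2.1.0 and the mm10 build. The annotation and the strand setting are not given in the sources used here, so overlapping and antisense genes are uncertain. The deposited table held raw counts of 40824 genes; 92 spike-in rows were left out, no 2 cells were identical and every column used matched 1 title.

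The sets of a group are the replicates, and counts of cells were summed per set. Genes were tested with edgeR 4.0.16 in R 4.3.3 (filterByExpr, TMM, quasi-likelihood F test, Benjamini-Hochberg adjusted p under 0.05). A standard error is the absolute log2 fold change divided by the square root of F. Values per set are CPM of the summed counts. The 3 shares of Gcg, Neurog3 and both were compared with exact permutation tests (scipy 1.17.1). The same test was run on the cells with G2/M genes, S phase genes or either. An upper limit given for 0 cells is 3 divided by the number of cells. For 0 of 56 the Clopper-Pearson limit (95% interval) was 6.38%. DESeq2 1.42.0 and limma 3.58.1 served as alternatives. On simulated counts for the Gcg-high comparison (13609 genes), 4.00%, 44.4%, 61.7% and 69.6% of genes changed by 1, 2, 3 and 4 log2 units were called, and so were 9 of 13421 unchanged genes.

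The cells, the 28 gene lists and the tests were chosen with earlier results of these data known. Named genes were members of the lists and, per direction, the 12 (Gcg-high cells: 6) with the largest change among genes past the threshold whose sets did not overlap and whose mean reached 50 CPM on 1 day. All but 1 (Apela) of the 388 list genes were in the table. Gene positions are GENCODE's on GRCm38, promoters RefSeq's.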

Additional observations from a re-analysis of the deposited data

How the results depend on the processing

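Among all cells the count of called genes was 1, and it was 280 with DESeq2, 3 in one fit with the E16.5 and E17.5 sets, 1 without a filter on low counts, without cells marked as other types or without the high-Sparc cells, and 0 with limma on mean log values, with all cells kept or with Gcg-low cells only. In Gcg-high cells it was 2, and 463 with DESeq2 (206 higher, 257 lower), 25 without a filter (13 higher, 12 lower), 31 with limma (19 higher, 12 lower), 3 at a Gcg limit of 10000 CPM and 1 without cycle-marked cells, a setting that also leaves out E10.5 set 1. Leaving out 1 set gave 0 to 1 and 1 to 4 calls. Whether set numbers pair the samples is not known. In deviations from the mean of the day, same-numbered sets correlated at -0.188 to 0.0975 and other pairs at -0.177 to 0.292. With 3 sets per day these values cannot decide the question. The replicate block gave 0 and 6 calls. The cause of these differences was not tested. Without cycle-marked cells and E10.5 set 1, Pcsk1 had a log2 fold change of -1.98 and an edgeR adjusted p of 0.106. Without E10.5 set 1 alone these were -2.03 and 0.0663 (0.0255 to 0.259 without any 1 set). Under the replicate block they were -2.08 and 0.0457. The difference in the Gcg-high share was -2.91 points at 5 times higher limits and -5.35 with all cells kept, and ran from -6.07 to 20.02 without 1 set. The Neurog3 difference ran from -5.48 to 1.04, the last without E10.5 set 3. The directions of Pcsk1n and Pcsk1, the genes run under these alternatives, did not reverse. E10.5 set 1 held 6 Gcg-high cells, and a missed threshold shows no equality.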
